A study of Mus musculus with 12 samples.

Results

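The genes described here drive a cell through division and end it: the cyclins Ccnd1, Ccna2, Ccnb1 and Ccnb2, the kinase Cdk1, the cyclin-dependent kinase inhibitor Cdkn1a (p21), and 3 genes of the passage through mitosis, Cdc20, Ube2c and Cdca3. They were found by the gene symbols in the authors' deposited lists of changed probe sets, where Cdk1 stands under its older symbol Cdc2a. These 9 genes were represented by 11 of the 32115 probe sets tested, with 2 probe sets each for Cdkn1a (1424638_at and 1421679_a_at) and Cdc20 (1439377_x_at and 1416664_at) and 1 for each of the other genes. A further 2 probe sets were listed under Ccnb1 together with other symbols, and they are given beside Ccnb1 but are not counted.

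Liver RNA was measured on 12 arrays, 3 in each of 4 groups of AhCre-positive mice: wild-type controls (WT), mice homozygous for floxed Apc (APCflox hom, here Apc), mice homozygous for floxed c-Myc (Cmyc flox hom, here Myc), and mice homozygous for both (here ApcMyc). Cre is driven in this line by the Cyp1a1 promoter, which beta-naphthoflavone switches on, so that recombination occurs in the liver and in other epithelia where the promoter responds. All groups, controls included, received 3 doses of 80 mg/kg beta-naphthoflavone within a day, and livers were taken 4 days later. The sources used here do not give the mice's ages and sexes or the extent of recombination in each liver, and the arrays of a group are named as separate samples without a statement that each came from its own mouse. The p-values below therefore measure the spread between these samples. The study asked what loss of Apc, of c-Myc and of both does in the liver.

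In a dividing cell, cyclin D1 with its kinases starts the passage out of G1, cyclin A2 carries it through S phase, and Cdk1 with the B cyclins drives mitosis. Mitosis ends when the anaphase-promoting complex, activated by Cdc20 and fed ubiquitin by the E2 enzyme Ube2c, marks the B cyclins for destruction, while p21 restrains cyclin-dependent kinases. Adult hepatocytes rarely divide, and Apc normally keeps beta-catenin low, whose targets with TCF factors include Myc and, in many tissues, Ccnd1.

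Promoters are shown for the mitotic genes, because these genes followed each other closely over the 12 arrays. Their class of promoter is also known for the CCAAT box, bound by NF-Y, and the cell cycle genes homology region. Of that region the spellings TTTGAA and TTCGAA were searched for, and no others. Each line holds the 130 bases before the annotated start in the mouse build GRCm38.p6, from RefSeq, written 5′ to 3′ on the gene's strand. Capitals mark matches, on either strand, to CCAAT, to the searched spellings of the homology region, and to CTTTGAT, a site of TCF factors. The Myc E-box CACGTG was searched for as well.
Cdk1 promoter, chr10:69352913-69353042 (- strand): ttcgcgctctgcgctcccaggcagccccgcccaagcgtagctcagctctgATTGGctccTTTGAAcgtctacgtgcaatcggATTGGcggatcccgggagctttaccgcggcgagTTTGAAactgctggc
Ccnb1 promoter, chr13:100786487-100786616 (- strand): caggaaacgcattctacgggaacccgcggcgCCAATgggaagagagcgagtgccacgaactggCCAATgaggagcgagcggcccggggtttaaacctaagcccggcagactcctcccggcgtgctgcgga
Ccnb2 promoter, chr9:70421555-70421684 (- strand): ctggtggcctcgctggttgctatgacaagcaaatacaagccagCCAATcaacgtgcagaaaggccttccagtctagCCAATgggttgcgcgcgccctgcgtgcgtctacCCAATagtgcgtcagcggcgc
Cdc20 promoter, chr4:118437344-118437473 (- strand): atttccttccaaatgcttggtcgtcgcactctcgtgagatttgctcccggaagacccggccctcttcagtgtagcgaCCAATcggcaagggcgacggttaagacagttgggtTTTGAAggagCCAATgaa
Ube2c promoter, chr2:164769799-164769928 (+ strand): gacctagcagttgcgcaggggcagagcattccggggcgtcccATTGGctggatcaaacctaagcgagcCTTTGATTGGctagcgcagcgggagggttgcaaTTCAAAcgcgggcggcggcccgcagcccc
Cdca3 promoter, chr6:124830046-124830175 (+ strand): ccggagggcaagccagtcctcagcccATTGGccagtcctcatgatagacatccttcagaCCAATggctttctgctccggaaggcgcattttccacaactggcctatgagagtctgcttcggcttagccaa

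Each of these 6 promoters held at least 2 CCAAT matches in the 250 bases before its start, from 2 in Ccnb1, Cdc20 and Cdca3 to 3 in Cdk1 and Ccnb2 and 6 in Ube2c. Of the 32851 promoters in the table, 33.8% held CCAAT at least once and 10.1% held it 2 or more times. TTTGAA was found in Cdk1 (2 matches), Ccnb2, Cdc20 and Ube2c (1 each), against 16% of all promoters. Its nearest copies began 15 bases before the start of Cdk1 and 18 bases before that of Cdc20. CTTTGAT was found in the promoter of Ube2c, where its last bases overlap a CCAAT match on the other strand, and in 3.21% of all promoters. Neither TTCGAA (1.34% of all promoters) nor CACGTG (6.02%) was found in any of the 6. The table gives 2 starts for Cdkn1a, at which none of the 5 motifs was found in 250 bases, and Ccnd1 and Ccna2 are named without a promoter. A match describes the letters of the window and was not tested as a binding site.

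Values below are log2 levels, log2(signal + 16), of signals recovered from the authors' standardized scores and put on 1 distribution for all arrays. Differences between groups are in log2 units from limma across all probe sets, a difference of 1 being a doubling on that scale, and a change is called at a Benjamini-Hochberg adjusted p under 0.05. The pseudocount of 16 makes a fold change of a dim probe set smaller than that of its signal. Liver tissue holds several cell types, and fewer cells of a type cannot be told apart here from less RNA per cell.

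Before the genes of interest, the deletion was checked on Myc, for which the deleted part and the probe set's place relative to it are not given. Its log2 level was 6.07 ± 0.678 (SD, n = 3) in WT, 8.80 ± 0.258 in Apc, 5.22 ± 0.299 in Myc and 5.45 ± 0.0747 in ApcMyc. It rose by 2.73 with Apc loss (adjusted p = 5.85e-05, limma) and was lower in ApcMyc than in Apc by a log2 difference of -3.35 (adjusted p = 5.08e-05), with no overlap in either comparison. In Myc against WT the difference was -0.85 (adjusted p = 0.0833) and in ApcMyc against WT it was -0.61 (adjusted p = 0.140), with overlapping arrays in both, so these arrays do not show how far Myc was lost. The titles of the WT and Apc arrays are in one style and those of the Myc and ApcMyc arrays in another, so a difference between these array sets cannot be told apart from Myc deletion in Myc minus WT, ApcMyc minus Apc and ApcMyc minus WT. Apc minus WT and ApcMyc minus Myc each compare arrays titled in the same way. The median signal per array before normalization was 35.4 to 53.7 in WT and Apc, 59.5 to 78.9 in Myc and 86.5 to 106.9 in ApcMyc.

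Loss of Apc alone raised every one of these genes. All 11 probe sets were higher in Apc than in WT at the adjusted threshold, where 7.87% of all probe sets were called higher, and in all 11 the 3 Apc arrays lay above the 3 WT arrays, which held for 15.3% of all probe sets. Differences ran from 2.63 to 4.08 with a median of 3.30, against a median of -0.02 over all probe sets, and adjusted p-values ran from 1.55e-05 to 0.00141 (limma). The genes carry names because the authors' deposited lists held them. Of the 11 probe sets, 8 stand in their list of Apc against WT and 5 in that of ApcMyc against WT, 2 of them in both. Their list of ApcMyc against Apc, with 140 probe sets, holds 0 of the 11. The counts of calls above are therefore not independent evidence of direction.

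**Figure D1:**
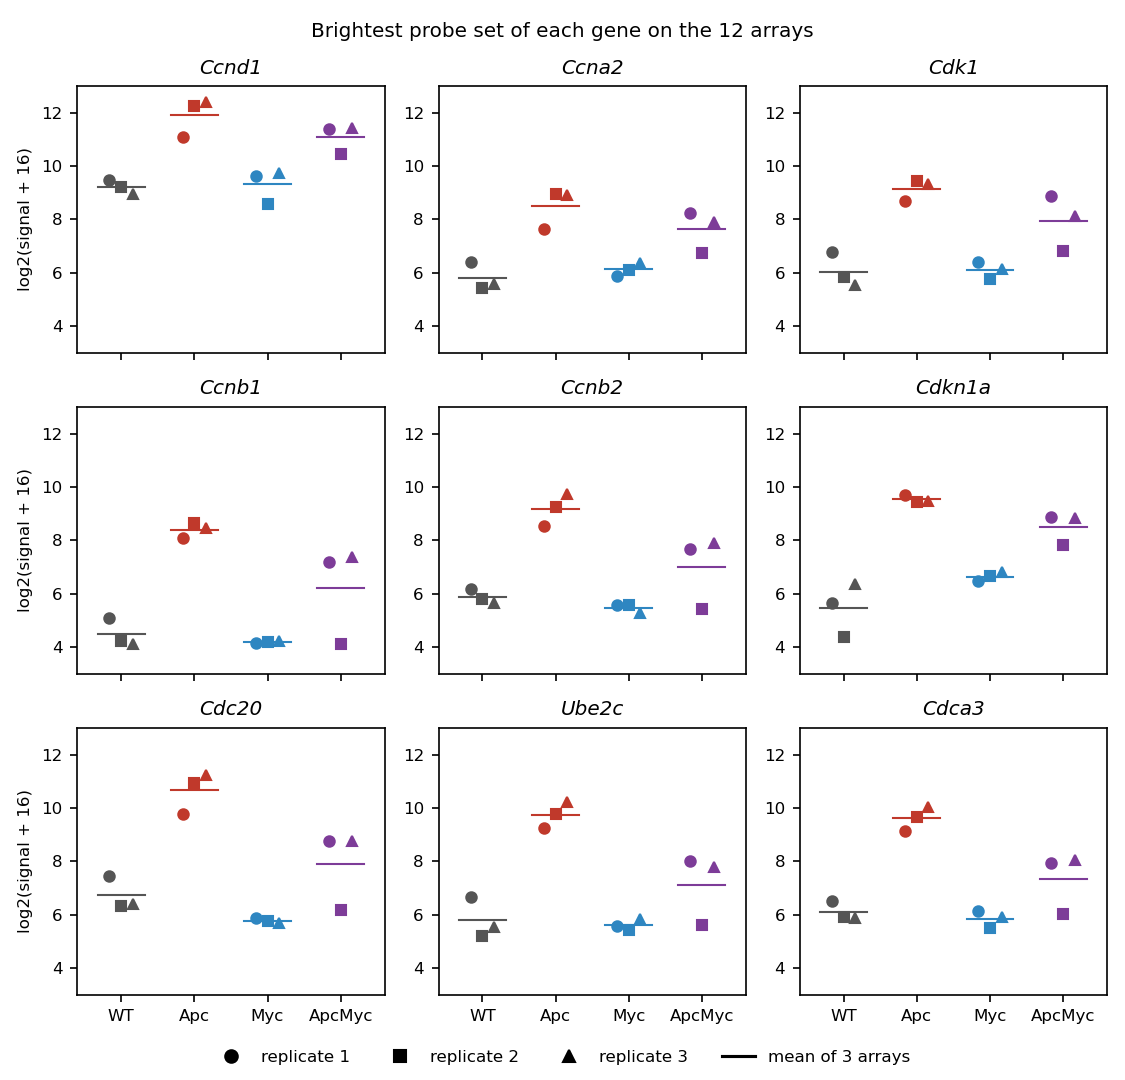
Log2 level, log2(signal + 16), of the brightest probe set of each gene on each of the 12 arrays, by group, with a line at the mean of 3 arrays. Apc arrays lie above the WT arrays in all 9 panels, and ApcMyc replicate 2 is the lowest of its group in all 9.

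Ccnd1, the cyclin of the G1 phase, had log2 levels of 9.49, 9.23 and 8.95 in WT (here and below in the order of replicates 1, 2 and 3), 11.07, 12.24 and 12.39 in Apc, 9.64, 8.56 and 9.74 in Myc, and 11.39, 10.44 and 11.43 in ApcMyc. The arrays with floxed Apc lay above those without, and WT and Myc arrays overlapped, as did Apc and ApcMyc arrays. Ccnd1 rose 6.40-fold with Apc loss (log2 difference 2.68, SE 0.396, adjusted p = 0.000712) and 3.42-fold in ApcMyc over Myc (1.77, SE 0.396, adjusted p = 0.0110). ApcMyc and Apc livers did not differ at the adjusted threshold (-0.81, 95% interval -1.67 to 0.05, adjusted p = 0.167).

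For Ccna2, the cyclin of S phase and of entry into mitosis, log2 levels were 6.38, 5.42 and 5.56 in WT, 7.65, 8.94 and 8.92 in Apc, 5.89, 6.09 and 6.38 in Myc, and 8.24, 6.74 and 7.91 in ApcMyc. Every Apc and ApcMyc array again lay above every WT and Myc array, although ApcMyc replicate 2 stood 0.62 above the Myc mean and the other ApcMyc arrays stood 2.12 and 1.79 above it. Ccna2 rose 6.57-fold with Apc loss (2.72, SE 0.420, adjusted p = 0.000959) and 2.85-fold in ApcMyc over Myc (1.51, SE 0.420, adjusted p = 0.0322).

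Cdk1, the kinase that the A and B cyclins bind, was measured at log2 levels of 6.76, 5.83 and 5.53 in WT, 8.68, 9.45 and 9.32 in Apc, 6.41, 5.77 and 6.15 in Myc, and 8.89, 6.80 and 8.14 in ApcMyc. ApcMyc replicate 1 reached the Apc range, and replicate 2 was just above the highest Myc and WT arrays. Cdk1 rose 8.63-fold with Apc loss (3.11, SE 0.456, adjusted p = 0.000661) and 3.56-fold in ApcMyc over Myc (1.83, SE 0.456, adjusted p = 0.0193). Against Apc the ApcMyc arrays differed by -1.20 (95% interval -2.19 to -0.22, adjusted p = 0.0795), short of a call.

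Ccnb1, a cyclin of mitosis, was near the bottom of the signal range in WT and Myc livers. Its signals before normalization were 1.0 to 12.5 in WT and 1.8 to 2.9 in Myc, and 173.3 to 325.3 in Apc. In ApcMyc they were 220.2, 2.0 and 200 in replicates 1, 2 and 3. On the log2 scale the levels were 5.09, 4.22 and 4.11 in WT, 8.09, 8.64 and 8.47 in Apc, 4.15, 4.198 and 4.23 in Myc, and 7.19, 4.11 and 7.38 in ApcMyc. ApcMyc replicate 2 thus lay at the level of the Myc livers and the other ApcMyc arrays about 3 log2 units above them. Ccnb1 rose with Apc loss by 3.93 log2 units (SE 0.643, adjusted p = 0.00141). With WT signals this low the size depends on the pseudocount, running from 2.44 with 64 to 5.90 with 1, and no fold is given. The difference ApcMyc minus Myc was 2.04 (95% interval 0.64 to 3.43) and missed the threshold (adjusted p = 0.0549). In the probe sets listed under Ccnb1 and related sequences (1448205_at and 1416076_at), Apc minus WT was 3.55 and 4.02. ApcMyc replicate 2 was low there as well, at 5.53 and 4.43 against ApcMyc replicates 1 and 3 at 7.46 to 8.15. In them ApcMyc minus Myc was 1.59 (adjusted p = 0.0669, limma), not called, and 2.19 (adjusted p = 0.0343), called and without overlap.

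Ccnb2, the second B cyclin, had log2 levels of 6.19, 5.81 and 5.64 in WT, 8.53, 9.26 and 9.74 in Apc, 5.57, 5.58 and 5.27 in Myc, and 7.67, 5.44 and 7.88 in ApcMyc. ApcMyc replicate 2 lay inside the Myc range. With Apc loss Ccnb2 rose 9.84-fold (3.30, SE 0.511, adjusted p = 0.000969). In ApcMyc against Myc the difference of 1.52 (95% interval 0.42 to 2.63) did not pass (adjusted p = 0.0689).

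Cdkn1a was the inhibitor in the set, and it rose along with the cyclins that its product restrains. On its brighter probe set (1424638_at) log2 levels were 5.63, 4.36 and 6.37 in WT, 9.69, 9.45 and 9.48 in Apc, 6.46, 6.65 and 6.81 in Myc, and 8.87, 7.82 and 8.84 in ApcMyc. The groups did not overlap and stood in the order WT, Myc, ApcMyc, Apc, although WT and Myc did not differ at the adjusted threshold (1.18, adjusted p = 0.0924), nor did ApcMyc and Apc (-1.03, adjusted p = 0.0944). Apc loss raised it by 4.08 (SE 0.411, adjusted p = 4.25e-05; 4.95 with a pseudocount of 1, since a WT signal was as low as 3.1), and in ApcMyc it exceeded Myc 3.65-fold (1.87, SE 0.411, adjusted p = 0.0101).

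The dimmer Cdkn1a probe set (1421679_a_at) read 4.23, 4.44 and 4.51 in WT, 7.42, 6.72 and 6.94 in Apc, 4.28, 4.38 and 4.22 in Myc, and 6.07, 5.34 and 6.14 in ApcMyc. Here WT and Myc overlapped (-0.10, adjusted p = 0.831), and ApcMyc lay between them and Apc without overlap. Its signals before normalization were 1.6 to 3.9 in WT and 2.8 to 3.7 in Myc, near the lowest signal of 1, so that only differences on this scale are given and no folds. It rose by 2.63 with Apc loss (SE 0.231, adjusted p = 1.55e-05) and by 1.56 in ApcMyc over Myc (SE 0.231, adjusted p = 0.000981), and was lower in ApcMyc than in Apc (-1.18, adjusted p = 0.00406). Both Cdkn1a probe sets were called in each comparison of Apc loss, but they disagree on Myc minus WT in sign and size.

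Cdc20, which activates the anaphase-promoting complex, was read by a pair of probe sets. The brighter (1439377_x_at) had log2 levels of 7.44, 6.33 and 6.38 in WT, 9.77, 10.95 and 11.25 in Apc, 5.87, 5.76 and 5.69 in Myc, and 8.75, 6.19 and 8.77 in ApcMyc. The other (1416664_at) had 7.02, 5.55 and 6.28 in WT, 9.05, 9.43 and 9.77 in Apc, 5.27, 4.79 and 5.17 in Myc, and 8.08, 6.32 and 8.34 in ApcMyc. In both, every ApcMyc array lay above the Myc arrays and ApcMyc replicate 2 lay among or below the WT arrays. Apc loss raised them 15.3-fold (3.94, SE 0.598, adjusted p = 0.000860) and 8.77-fold (3.13, SE 0.472, adjusted p = 0.000793), and ApcMyc exceeded Myc by 2.13 (adjusted p = 0.0343) and 2.51 (adjusted p = 0.00428). All Myc arrays were below all WT arrays on both probe sets, as in 16.1% of all probe sets, by -0.94 (adjusted p = 0.358) and -1.21 (adjusted p = 0.130), neither of which was called.

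Ube2c, the ubiquitin-conjugating enzyme of the anaphase-promoting complex, was at log2 levels of 6.65, 5.21 and 5.52 in WT, 9.25, 9.79 and 10.21 in Apc, 5.58, 5.42 and 5.82 in Myc, and 8.01, 5.61 and 7.77 in ApcMyc. ApcMyc replicate 2 sat inside the Myc range, and the other ApcMyc arrays lay between the Myc and the Apc arrays. Ube2c rose 15.5-fold with Apc loss (3.96, SE 0.540, adjusted p = 0.000416), while ApcMyc minus Myc was 1.52 (95% interval 0.35 to 2.70) and was not called (adjusted p = 0.0843).

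Cdca3, which in human and frog cells helps degrade the mitosis inhibitor Wee1, was at 6.53, 5.90 and 5.89 in WT, 9.14, 9.66 and 10.04 in Apc, 6.14, 5.49 and 5.92 in Myc, and 7.95, 6.02 and 8.04 in ApcMyc. ApcMyc replicate 2 was below the highest Myc array. Cdca3 rose 11.4-fold with Apc loss (3.505, SE 0.448, adjusted p = 0.000253) and 2.80-fold in ApcMyc over Myc (1.49, SE 0.448, adjusted p = 0.0459).

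Taking the genes as a set, 8 of the 11 probe sets rose with Apc loss on the floxed Myc background, ApcMyc against Myc, where 6.64% of all probe sets were called higher, and Ccnb1, Ccnb2 and Ube2c missed the threshold. All 11 differences were above 0 and had an unadjusted p under 0.05, which 27.8% of all probe sets had. They ran from 1.49 to 2.51 with a median of 1.77, and the ApcMyc and Myc arrays did not overlap in 7 probe sets (17.0% of all probe sets lay higher without overlap). The number of calls depended on single arrays. It was 11 of 11 without ApcMyc replicate 2, 5 without Myc replicate 1, and 4 without any one of Myc replicates 2 and 3 and ApcMyc replicates 1 and 3. Over the settings tried, Ccnd1, the dimmer Cdkn1a probe set and Cdc20 probe set 1416664_at were called in each one, whereas Ube2c was called in 2 of 21.

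The measured response to Apc loss was smaller on the floxed Myc background than on the WT background in all 11 probe sets, but no difference between the responses was called. Of the 11, 8 carry names through the authors' list of Apc against WT, 6 of them through no other list. Selection for a change in Apc against WT favours a larger response on that background. The shared sign is therefore not independent evidence. ApcMyc minus Myc less Apc minus WT ran from -2.43 for Ube2c (95% interval -4.09 to -0.77, adjusted p = 0.112) to -0.63 for Cdc20 probe set 1416664_at (95% interval -2.07 to 0.82, adjusted p = 0.662), with a median of -1.77. The lowest adjusted p was 0.0681, for Cdkn1a on its brighter probe set (-2.21, 95% interval -3.48 to -0.95). The others were Ccnd1 at -0.90, Ccna2 at -1.20, Cdk1 at -1.28, Ccnb1 at -1.89, Ccnb2 at -1.77, the dimmer Cdkn1a probe set at -1.08, the brighter Cdc20 probe set at -1.81 and Cdca3 at -2.02. At an unadjusted p under 0.05 there were 5 probe sets of 11, where 18.8% of all probe sets passed, and 2.32% of all probe sets were called in either direction by limma. Without ApcMyc replicate 2 the differences ran from 0.00 to -1.87 and again none was called. A difference between the array sets that adds equally to both arms cancels in this test.

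**Figure D2:**
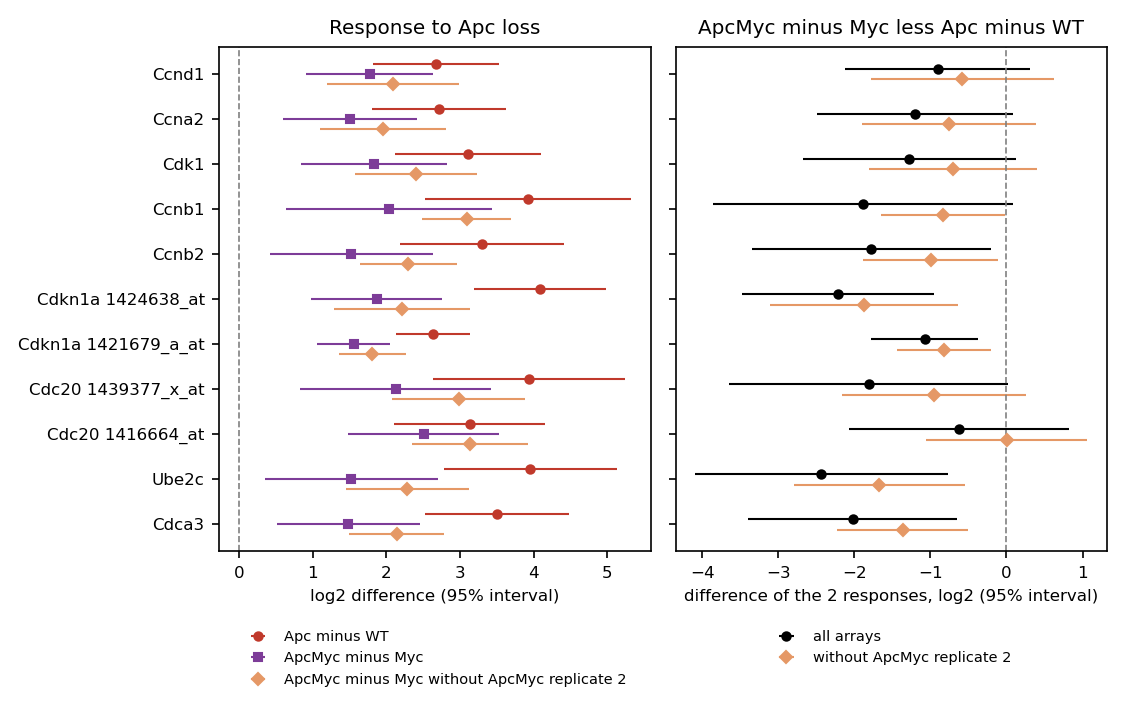
Left, log2 differences with 95% intervals for Apc minus WT, ApcMyc minus Myc, and ApcMyc minus Myc without ApcMyc replicate 2, by probe set. Right, the difference of the responses with all arrays and without ApcMyc replicate 2. The response is smaller in ApcMyc for all 11 probe sets with all arrays, and leaving out that array moves the differences towards 0.

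Set directly against Apc livers, ApcMyc livers were lower in 7 of 11 probe sets, where 10.4% of all probe sets were called lower: Ccnb1, Ccnb2, both of Cdc20, Ube2c, Cdca3 and the dimmer of Cdkn1a. All 7 stand in the authors' list of Apc against WT, made with the same Apc arrays, so their direction here is not independent evidence. The authors' own deposited list of ApcMyc against Apc holds 0 of the 11 probe sets, with 140 listed. The largest were Cdc20 probe set 1439377_x_at at -2.75 (adjusted p = 0.00706) and Ube2c at -2.62 (adjusted p = 0.00535), with Cdca3 at -2.27 (adjusted p = 0.00424) and Ccnb2 at -2.18 (adjusted p = 0.0103). The genes of G1 and S phase, Ccnd1 and Ccna2, and Cdk1 were not called, at -0.81, -0.87 and -1.20. This split depended on the setting. Ccnd1 and Ccna2 were called without Apc replicate 1 (adjusted p = 0.0435 and 0.0450, limma), and Cdk1 without ApcMyc replicate 1 (adjusted p = 0.0242). Ccnb1 was not called on the scores as deposited (adjusted p = 0.179) or without any 1 of the Apc arrays. ApcMyc arrays lay below all Apc arrays in 8 of 11 probe sets, where 17.6% of all probe sets did, the eighth being the brighter of Cdkn1a. Without ApcMyc replicate 2 the same comparison still gave adjusted p-values of 0.00559 for Cdca3, 0.00972 for Ube2c, 0.0121 for Ccnb2 and 0.0220 for Ccnb1, while the difference shrank from -2.17 to -1.11 for Ccnb1, to -1.40 for Ccnb2 and from -1.83 to -1.21 for Cdc20 probe set 1416664_at. The title styles differ between these groups, so floxed Myc and array set cannot be told apart in these values.

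Against WT, ApcMyc livers were higher in 5 probe sets, where 12.2% of all probe sets were called higher: Ccnd1 (1.86, adjusted p = 0.00467), Ccna2 (1.84, adjusted p = 0.00702), Cdk1 (1.91, adjusted p = 0.00914) and both of Cdkn1a (3.05, adjusted p = 0.000250, and 1.46, adjusted p = 0.000745). In these 5 every ApcMyc array exceeded every WT array, as in 19.4% of all probe sets. The same 5 are the ones in the authors' list of ApcMyc against WT, made from these arrays, and the other 6 are named only through Apc against WT. The split between called and not called is therefore not independent of how the genes were named. The other 6 were not called, at 1.76 for Ccnb1, 1.12 for Ccnb2, 1.18 and 1.30 for Cdc20, 1.34 for Ube2c and 1.23 for Cdca3. Both uncounted probe sets listed under Ccnb1 and related sequences were called, with overlapping arrays (1.57, adjusted p = 0.0472, and 1.90, adjusted p = 0.0396, limma). Without ApcMyc replicate 2 all 11 were called, with Ccnb1 at 2.81 and Ube2c at 2.10. In Myc against WT none of the 11 was called in limma (9.11% of all probe sets were called in either direction). At an unadjusted p under 0.05 there were 2, where 25.5% of all probe sets passed: Cdkn1a on its brighter probe set at 1.18 and Cdc20 probe set 1416664_at at -1.21. The other differences were 0.09 for Ccnd1, 0.33 for Ccna2, 0.07 for Cdk1, -0.28 for Ccnb1, -0.41 for Ccnb2, -0.10 for the dimmer Cdkn1a probe set, -0.94 for the brighter Cdc20 probe set, -0.19 for Ube2c and -0.25 for Cdca3. Cdkn1a was called without WT replicate 3 (1.64, adjusted p = 0.0314), and that Cdc20 probe set without ApcMyc replicate 2 (adjusted p = 0.0428). Comparisons that share a group of arrays, such as these with WT, are not independent of each other.

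A single array carried much of the spread within the ApcMyc group. ApcMyc replicate 2 was the lowest of its group in 11 of 11 probe sets, a place it held in 31.8% of all probe sets. In the 8 probe sets other than those of Ccnd1 and Cdkn1a, it stood between -0.08 and 1.25 above the Myc mean with a median of 0.29, and it exceeded every Myc array in 4. ApcMyc replicates 1 and 3 stood 2.10 to 3.00 (median 2.59) and 1.79 to 3.27 (median 2.298) above it and exceeded every Myc array in all 8. In the same liver sample, Ccnd1 was 1.13 and Cdkn1a 1.05 and 1.18 above the Myc mean, above every Myc array.

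For comparison, 5 genes known to follow beta-catenin in the liver were read on the same array, picked with their direction in these data known. Over Glul, the glutamine synthetase of pericentral hepatocytes, Axin2, Lgr5, Sp5 and Tbx3, that array stood 1.47 to 1.98 above the Myc mean, ApcMyc replicate 1 stood 1.39 to 2.19 and replicate 3 stood 1.22 to 2.33, and all 3 arrays exceeded every Myc array in all 5. Sp5 was lowest in replicate 2, and Ccnd1, itself a beta-catenin target in many tissues, stood at 1.13 there against 2.08 and 2.11. Its median signal was 86.5, against 106.9 and 86.8 in ApcMyc replicates 1 and 3. Macrophage marker sums on normalized signal were 2615, 2017 and 2736 in ApcMyc replicates 1, 2 and 3, and endothelial marker sums were 1233, 1216 and 1063. Replicate 2 had the highest hepatocyte sum of the group (19190 against 14970 and 17520) and the lowest sums for T and NK cells (156.4 against 168.4 and 274.1) and red cell precursors (280.9 against 310.2 and 450.2). Over the 24 other cell cycle genes measured, the array stood at a median of 0.33 above the Myc mean, against 1.60 and 1.002 in ApcMyc replicates 1 and 3. What set this array apart was not tested.

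**Figure D3:**
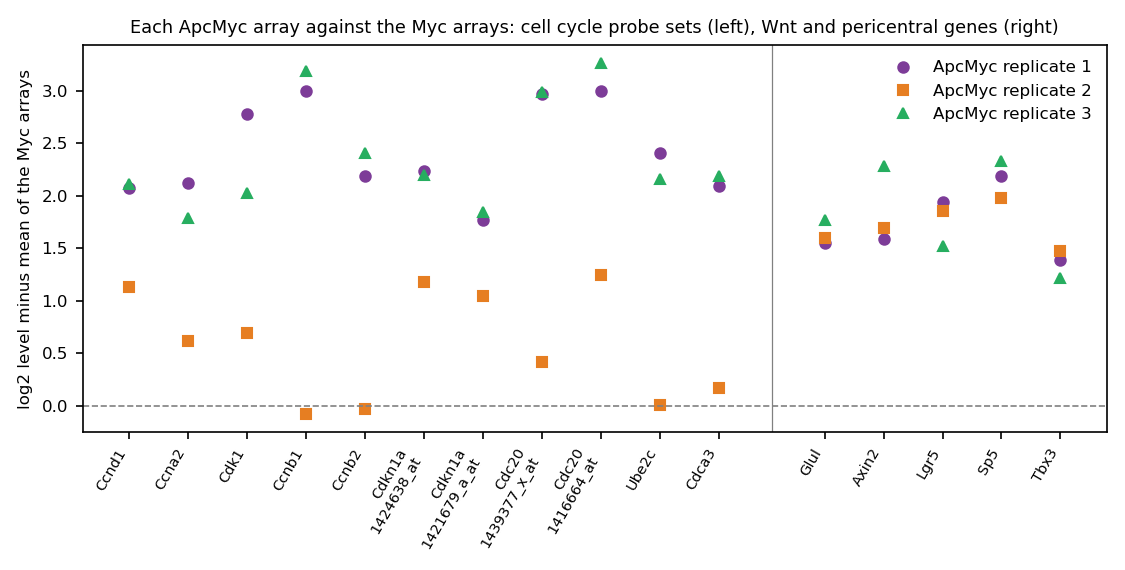
Log2 level of each ApcMyc array minus the mean of the 3 Myc arrays, for the 11 probe sets of the cyclins, their inhibitor and mitotic exit (left) and for 5 genes known to follow beta-catenin (right). ApcMyc replicate 2 is lowest in every probe set on the left and lies among the other arrays on the right in Glul, Axin2 and Lgr5, at the top in Tbx3 and at the bottom in Sp5.

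In the WT and Apc groups too, replicate 1 stood at one end of the mitotic genes. In the 8 probe sets other than those of Ccnd1 and Cdkn1a, WT replicate 1 was the highest WT array in 8 of 8 (34.5% of all probe sets) and Apc replicate 1 the lowest Apc array in 8 of 8 (36.4%). Even there, the lowest Apc array exceeded the highest WT array in each. WT replicate 1 also had the highest WT marker sums for macrophages (1479 against 577.5 and 705.5), T and NK cells (119.1 against 52.2 and 54.3) and endothelium (671.3 against 277.9 and 370.3). Its Pdgfrb was highest too (196 against 133.2 and 137.7), and its hepatocyte (35730) and red cell precursor (1172) sums were the lowest. Apc replicate 1 had the highest Apc sums for endothelium (572 against 354.9 and 350.9) and Pdgfrb (96.8 against 37.4 and 35.6). It was also highest for hepatocytes (32350 against 31040 and 30430) and red cell precursors (333.1 against 209.8 and 278). Its macrophage sum was the lowest (597.4 against 919 and 781.8), and its T and NK cell sum the middle one. The part of those cells in the order of the arrays was not tested. Among the Myc arrays no array was lowest in more than 4 of these 8 probe sets. Over the 12 arrays and with the group differences included, Pearson correlations between the brightest probe sets of the 9 genes ran from 0.799 for Cdkn1a with Cdc20 to 0.993. Those of Cdkn1a with the other 8 genes reached 0.905, with Ccna2.

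Likeness over the 12 arrays was ranked by Pearson's r among 2167 other named genes. Plk1, a mitotic kinase, and Birc5, a chromosomal passenger protein, headed the order for Ccnb1 (r = 0.979 and 0.968), Ccnb2 (0.971 and 0.970) and, with Birc5 first, Cdc20 (0.979 and 0.973). For Ube2c they were Plk1 and Aurka (0.983 and 0.980), and for Cdca3 Aurka, another mitotic kinase, and Birc5 (0.985 and 0.984). Ccna2 was most like Cdca8 and Cdca2 (0.981 and 0.980), and Cdk1 most like Ercc6l and Sgo2a (0.985 each). Ccnd1 was most like Ercc6l and Nmt2 (0.977 and 0.966). For Cdkn1a they were the glutamate transporter Slc1a2 and the lipase Abhd12 (0.954 and 0.951). Next for Cdkn1a was Stmn1 (0.950), which was also close to Ccna2 (0.971). The arrays share group differences and array sets, and the named genes are those the authors listed as changed, so these values describe the libraries.

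Of 24 other cell cycle genes that the authors' lists name, 18 rose with Apc loss and none fell, with a median difference of 1.697, and 8 rose and none fell in ApcMyc against Myc, with a median of 0.97, where 7.87% and 6.64% of all probe sets were called higher. No gene of the 24 was called in the difference of the responses (limma), whose median was -0.70 and where 5 had an unadjusted p under 0.05, a share near the 18.8% of all probe sets. Since only genes on the authors' lists of changed probe sets carry names, these shares are not those of the pathway, and the direction is not independent evidence.

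**Figure D4:**
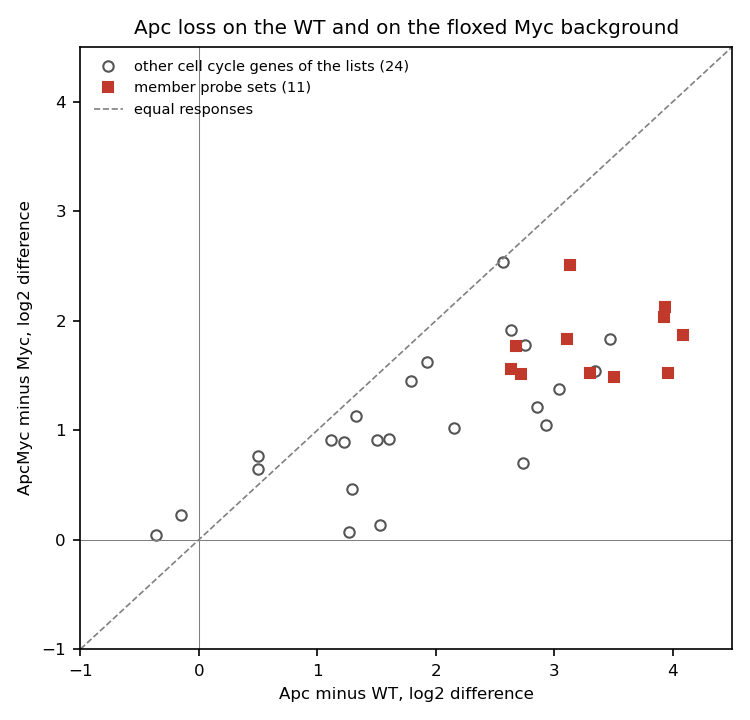
Apc minus WT (horizontal) against ApcMyc minus Myc (vertical), in log2 units, for the 11 probe sets (squares) and 24 other cell cycle genes (circles), with a dashed line where the responses are equal. All 11 squares lie below the line, between 2.63 and 4.08 on the horizontal axis.

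By role, 3 of 5 measured cyclins, kinases and activators (of 19 listed) rose with Apc loss, where 7.87% of all probe sets were called higher. They were Plk1 (3.04, adjusted p = 0.00338), the phosphatase Cdc25c that activates Cdk1 (1.61, adjusted p = 0.0118) and Skp2, which targets kinase inhibitors for destruction (1.27, adjusted p = 0.00765). Ccnh, the cyclin of the kinase that activates other cyclin-dependent kinases, differed by -0.36 (adjusted p = 0.240) and the G1 kinase Cdk6 by -0.15 (adjusted p = 0.789) in Apc minus WT. None of the 5 was called in ApcMyc against Myc in limma, where 2 had an unadjusted p under 0.05, as 27.8% of all probe sets had. Ccnh and Cdk6 were lower in Myc minus WT (-1.22, adjusted p = 0.00318, and -1.43, adjusted p = 0.0141) and in ApcMyc minus Apc (-0.81, adjusted p = 0.0111, and -1.05, adjusted p = 0.0294), comparisons in which the array sets differ too. Of the kinase inhibitors and pocket proteins, 2 of 14 were measured, and both rose with Apc loss: Rbl1, the pocket protein p107 (1.79, adjusted p = 0.00162), and Pkmyt1, which phosphorylates Cdk1 to hold it inactive (1.29, adjusted p = 0.00708). Only Rbl1 of the pair was called in ApcMyc against Myc (1.45, adjusted p = 0.00728).

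Among the regulators of mitotic exit, 3 of 4 measured (of 28 listed) rose with Apc loss, against 7.87% of all probe sets called higher. They were Plk1, the spindle checkpoint kinase Bub1 (2.15, adjusted p = 0.00491) and Fbxo5, an inhibitor of the anaphase-promoting complex (1.22, adjusted p = 0.00225). Fbxo5 also rose in ApcMyc over Myc (0.89, adjusted p = 0.0173), while the securin Pttg1 differed by 1.53 in Apc minus WT and was not called (adjusted p = 0.0922). Of the transcription factors, 2 of 20 were measured and neither was called by limma in either response to Apc loss (1 had an unadjusted p under 0.05 in Apc minus WT and 0 in ApcMyc minus Myc), E2f8 at 1.50 (adjusted p = 0.134) and Foxm1 at 0.50 (adjusted p = 0.485) in Apc minus WT.

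The proliferation markers were the best measured list, with 12 of 34, of which 11 rose with Apc loss and 6 in ApcMyc over Myc. Of all probe sets, 7.87% and 6.64% were called higher in these comparisons. Aurka (2.93, adjusted p = 0.000110), Cdca8 (2.86, adjusted p = 0.000298), the guanine nucleotide exchange factor of cytokinesis Ect2 (3.35, adjusted p = 0.000432) and the hyaluronan receptor Hmmr (2.73, adjusted p = 0.00119) had the smallest p-values in Apc minus WT. Of these only Ect2 was called in ApcMyc over Myc (1.54, adjusted p = 0.0434). The other 5 called there were Rrm1 of ribonucleotide reductase and Mcm2, Mcm3, Mcm5 and Mcm6 of the replicative helicase. In ApcMyc minus Apc, 4 of the 12 were lower, where 10.4% of all probe sets were called lower. Only 1 was higher, where 3375 of 32115 probe sets were called higher. Those lower were Aurka (-1.95, adjusted p = 0.00189), Birc5 (-2.25, adjusted p = 0.0181), Hmmr (-2.41, adjusted p = 0.00265) and Ect2 (-1.99, adjusted p = 0.00966), and the one higher was Tpx2, a spindle factor (1.16, adjusted p = 0.0110). Cdca8 was not called there (-0.87, adjusted p = 0.119), nor was Rrm1 (0.37, adjusted p = 0.482). The 5 Mcm genes lay between -0.44 and 0.43 in that comparison, and none was called by limma (adjusted p = 0.205 to 0.884).

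Cdkn1a is a target of p53 in many cells, and 2 of 24 other p53 targets were measured. Neither was called with Apc loss alone: Mdm2, the ubiquitin ligase of p53, differed by 0.23 (adjusted p = 0.646) and Rrm2b by -0.28 (adjusted p = 0.366). Mdm2 rose in ApcMyc over Myc (0.97, adjusted p = 0.0398) and over Apc (1.59, adjusted p = 0.00235), where Rrm2b differed by -0.14 (adjusted p = 0.688) and -0.47 (adjusted p = 0.1002). In ApcMyc against WT the pair moved in opposite directions, Mdm2 up by 1.81 (adjusted p = 0.000644) and Rrm2b down, at -0.75 (adjusted p = 0.0126).

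Markers of liver cell types moved with the groups as well. The summed normalized signal of the 3 of 12 hepatocyte markers measured (Apoa1, Apob and Serpina1a) was 35730 to 36430 in WT, 30430 to 32350 in Apc, 29510 to 31390 in Myc and 14970 to 19190 in ApcMyc. For 4 of 12 macrophage markers it was 577.5 to 1479 in WT, 597.4 to 919 in Apc, 1905 to 2528 in Myc and 2017 to 2736 in ApcMyc. Endothelial markers (5 of 12) gave 277.9 to 671.3, 350.9 to 572, 584 to 618.5 and 1063 to 1233 in the same order of groups. In Apc against WT, where all 11 probe sets rose, the macrophage and endothelial ranges overlapped and hepatocyte sums were lower. Within the hepatocyte sum, Serpina1a differed by -0.94 (adjusted p = 0.00475, limma), Apoa1 by 0.00 and Apob by 0.08. The Apoa1 means of WT and Apc were exactly equal. Quantile normalization gives equal values to equal ranks, so this equality does not measure an absence of change, and the sums hold the same values. Of the macrophage markers, Timd4 was called lower (-1.04, adjusted p = 0.00694). Marco was at -1.12 (adjusted p = 0.125), Lyz2 at -0.02 and Cd68 at 0.66 (adjusted p = 0.115). Endothelial markers ran from -0.95 to 0.76, with 1 of the 5 called lower and 0 higher. Of all 32115 probe sets, 2467 were called lower in this comparison.

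The 2 of 12 T and NK cell markers summed to 52.2 to 119.1 in WT, 56.3 to 65.1 in Apc, 137.9 to 150.4 in Myc and 156.4 to 274.1 in ApcMyc. The 4 of 9 red cell precursor markers gave 1172 to 1332 in WT, 209.8 to 333.1 in Apc, 706.8 to 890.5 in Myc and 280.9 to 450.2 in ApcMyc. The Myc sums, too, were all below the WT sums. Singly, the 4 markers differed by -2.40 to -0.15 in Apc minus WT, and 3 of them were called lower, where 2467 of 32115 probe sets were. Pdgfrb was the only one of 9 stellate markers measured, at 133.2 to 196 in WT and 35.6 to 96.8 in Apc. No marker was at the lowest signal on any array, and no B cell or biliary marker was named. The part of these cell types in the differences above was not tested.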

How the data were processed

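Each array's values were deposited by the authors as scores: the natural log of the signal, centred and divided by the SD within each array, as read from the values. Array design and scanner software were not stated in any source available here. Labels name Trizol and RNeasy extraction and an Enzo transcript labelling kit. Linear signals were recovered from the scores, using that the lowest signal is 1 and signals step by 0.1. On each array 100% of signals below 1000 lay within 0.01 of that grid. Signals of 32176 probe sets were quantile normalized, and log2(signal + 16) was fitted with limma 3.58.1 (R 4.3.3) as 4 group means over 12 arrays, with 61 control probe sets left out of the 32115 tested and Benjamini-Hochberg adjustment over all of them. The arrays' number limits the precision. The fit was tested on simulated data.

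Symbols came from the authors' deposited SAM score lists (5% false discovery rate), per the file headers, where 2517 probe sets carry 1 symbol. The members and gene lists were chosen with earlier results of these data known. All members are named in every comparison. From each cell cycle and p53 list, up to 4 measured genes with the smallest p in Apc minus WT are named, with others singled out after their values were seen (Cdk6, the Mcm genes, Rrm1, Tpx2, Birc5). Cell type markers are given as sums over each list, as measured, and for some lists also singly or as a range in Apc minus WT. The macrophage list was Cd68, Marco, Lyz2 and Timd4, and the endothelial list Pecam1, Cdh5, Kdr, Lyve1 and Emcn. The T and NK cell list was Nkg7 and Gzma, and the red cell list Alas2, Klf1, Car1 and Slc4a1. For each member, the 2 genes with the highest correlation are named, and for Cdkn1a also the next, Stmn1. The beta-catenin genes Glul, Axin2, Lgr5, Sp5 and Tbx3 were chosen as a comparison for ApcMyc replicate 2 with their direction in these data known.

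WT and Apc arrays share replicate numbers in their titles, while Myc and ApcMyc were numbered in accession order. Same-numbered WT and Apc arrays had correlations of their deviations of 0.0627, 0.00557 and -0.0122, so the numbers do not pair them. Within groups, arrays correlated at 0.958 to 0.980, and at most 0.516% of probe sets had the same signal on a pair of arrays.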

Additional observations from a re-analysis of the deposited data

How the results depend on the processing

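Over 22 other settings, covering scale, normalization, pseudocount, filter, variance prior, samples fitted and each array left out, Apc minus WT kept its direction and its call in 198 of 198 single-gene results. In several settings the direction could not change. Leaving out a Myc or ApcMyc array, the filter, the intensity trend, fitting only 2 groups and the replicate block leave this difference as it is. They can move only its p-value, and the other comparisons are limited in a like way. Of all 1134 single-gene results, 1043 kept direction and side of the threshold, 43 lost a call, 40 gained one and 8 changed sign. The 8 were uncalled values of Myc minus WT with an array left out: Ccnd1 ranged from -0.12 to 0.47, Cdk1 from -0.18 to 0.43, Ccnb1 from -0.46 to 0.0285 and Ube2c from -0.48 to 0.24.

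Calls in ApcMyc minus Myc, 8 of 11, fell to 4 on the scores as deposited, on quantile normalized scores and with a pseudocount of 1, and ranged from 4 to 11 with an array left out. ApcMyc minus WT went from 5 calls to 8 with an intensity trend and from 5 to 11 with an array left out. Calls in ApcMyc minus Apc, 7 of 11, ranged from 5 to 8 with an array left out and from 5 to 9 over the other settings. Myc minus WT ranged from 0 to 1 with an array left out. In the difference of the responses, 0 calls became 1 with median scaling, with an intensity trend and without low probe sets, each time Cdkn1a (adjusted p = 0.0390, 0.0345 and 0.0395), and 3 with a pseudocount of 64 (Cdkn1a, Ube2c and Cdca3, adjusted p = 0.0221, 0.0368 and 0.0398). It ranged from 0 to 1 with an array left out, the 1 being Cdkn1a without WT replicate 3 (adjusted p = 0.0369). The cause was not tested.

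With the replicate number as a block on WT and Apc arrays, all 11 calls of Apc minus WT held (adjusted p = 0.00386 to 0.0245), and the calls over all probe sets went from 4996 to 2161. Fitting only those 2 groups gave 3151. Calls over all probe sets in the difference of the responses went from 744 to 162 on deposited scores, 149 on quantile normalized scores, 194 with a pseudocount of 1, 1586 with one of 64, 1309 with an intensity trend, 1397 without low probe sets and 1207 with median scaling. With an array left out those calls ranged from 159 to 929, those of Myc minus WT from 1249 to 3457 (2925 with all arrays) and those of ApcMyc minus Myc from 2539 to 4932 (4302 with all arrays). Median scaling moved the split of calls in ApcMyc minus Myc from 2131 higher and 2171 lower to 1759 and 3511, and in Myc minus WT from 1302 and 1623 to 2251 and 1523.

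Array signal limits Ccnb1 and the dimmer Cdkn1a probe set most, since both lie below the median log2 level of 6.26 over probe sets and near the lowest signals in WT and Myc livers. With 3 arrays a group, 1 array decides several calls.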
